A study of Homo sapiens with 8 samples.

Results

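Histone demethylases, lysine methyltransferases, histone deacetylases and sirtuins were examined together with the Polycomb repressive complex 2 (PRC2) core and the enzymes that write and oxidise DNA methylation. Genes were taken by symbol: the KDM, KMT2, KMT5, SETD, HDAC and SIRT series, and EZH1, EZH2, SUZ12, EED, DNMT1, DNMT3A, DNMT3B, TET1, TET2 and TET3. This gave 62 of 60595 listed genes, of which 59 were tested by the authors for olaparib and 60 for shFoxO1. The cells were SUM159, an established human breast cancer line, carrying shCon, a control shRNA, or shFoxO1, which targets the transcription factor FOXO1. They were held for 3 days in DMSO or in 10 uM olaparib, a drug that inhibits PARP1 and PARP2 in DNA repair. Labels list 2 libraries in each of 4 groups, and 3 groups were analysed here: shCon in DMSO, shCon in olaparib and shFoxO1 in olaparib. All of these are cells of 1 line carrying 1 or the other lentiviral shRNA, and the labels give 1 shRNA name per genotype, so an effect of that hairpin and one of FOXO1 loss cannot be told apart.

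These enzymes set the chemical marks on histone tails and on DNA that chromatin proteins read. Lysine methyltransferases add methyl groups and demethylases of the LSD (amine oxidase) and JmjC (iron and oxoglutarate) classes remove them, while zinc-dependent HDACs and NAD-dependent sirtuins remove acyl groups. Many have paralogues of like activity, and inhibitors of EZH2, HDACs and DNA methyltransferases are used in cancer treatment.

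The authors deposited 1 FPKM value (fragments per kilobase of transcript and of sequencing depth) per gene and group in 2 tables, 1 for olaparib against DMSO in shCon cells and 1 for shFoxO1 against shCon under olaparib. The tables do not tell if each value was made from 1 or from both of the listed libraries. No spread between libraries can therefore be given, and the depth is unknown. A gene is called higher or lower where the authors' deposited table gives it a q-value of 0.05 or less. Whether a group's libraries were grown as separate cultures is not in the labels, so these q-values may reflect technical spread alone. The smallest q-values, 0.000284 for olaparib and 0.000244 for shFoxO1, were shared by 2610 of 14841 and 3001 of 14660 tested genes. Among these were 3 and 11 of the 62 genes. FOXO1 was at 54.6 FPKM in DMSO and 87.7 FPKM with olaparib, not called (q of 0.0966 by the authors' deposited table). On the second table's scale FOXO1 was at 89.2 FPKM with shCon against 17.5 FPKM with shFoxO1, called lower (q of 0.000244). Of 6 markers of a mesenchymal breast line all had reads, VIM at 1656 to 2487 FPKM; EGFR and CDH2 were called lower with olaparib, and with shFoxO1 EGFR, CDH2 and FN1 were called higher and VIM and AXL lower. Of 8 luminal markers CDH1 and PGR were listed at 0 in all 3 groups. ESR1 was at 0.0305 to 0.0880 FPKM, EPCAM at 0 to 0.0543 FPKM and FOXA1 at 0.645 to 1.19 FPKM. In contrast, KRT8 was at 93.7 to 331 FPKM, KRT18 at 110 to 213 FPKM and GATA3 at 8.68 to 15.0 FPKM. GATA3 and KRT18 were called lower with olaparib and KRT8 lower with shFoxO1. Of 5 leukocyte genes LYZ, CD3D and MS4A1 were listed at 0 throughout, CD14 was at 0.339 to 0.865 FPKM, and PTPRC was at 1.34 FPKM in DMSO, 0.142 FPKM with olaparib and 0 with shFoxO1, untested. Of the endothelial genes VWF and CDH5 were at most at 0.0198 FPKM, and PECAM1 was called higher with shFoxO1, from 0.0937 to 1.80 FPKM. The part of these marker levels in the results was not tested. Fewer cells of a kind and less RNA per cell cannot be told apart in bulk RNA.

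Promoter sequence is shown for the 4 genes with the largest called changes and a RefSeq window, each read from 250 bases before to 50 bases after the gene's outermost start in GRCh38.p14. They are KMT5A (chr12:123383882-123384181, plus strand), HDAC11 (chr3:13480056-13480355, plus strand), KDM6A (chrX:44872938-44873237, plus strand) and HDAC4 (chr2:239401600-239401899, minus strand). Capitals mark matches to any of 7 motifs named further on.
KMT5A: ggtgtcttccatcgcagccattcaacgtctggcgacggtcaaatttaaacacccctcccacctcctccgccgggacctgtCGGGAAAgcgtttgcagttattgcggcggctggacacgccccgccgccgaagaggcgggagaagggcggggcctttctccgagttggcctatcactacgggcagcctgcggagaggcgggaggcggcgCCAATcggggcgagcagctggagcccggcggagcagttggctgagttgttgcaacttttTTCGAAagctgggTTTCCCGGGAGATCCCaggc
HDAC11: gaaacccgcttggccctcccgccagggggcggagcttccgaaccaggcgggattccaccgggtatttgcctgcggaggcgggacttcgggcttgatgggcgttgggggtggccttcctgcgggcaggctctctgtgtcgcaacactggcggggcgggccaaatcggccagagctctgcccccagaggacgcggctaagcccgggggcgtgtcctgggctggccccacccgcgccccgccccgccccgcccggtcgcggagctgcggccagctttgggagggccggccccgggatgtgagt
KDM6A: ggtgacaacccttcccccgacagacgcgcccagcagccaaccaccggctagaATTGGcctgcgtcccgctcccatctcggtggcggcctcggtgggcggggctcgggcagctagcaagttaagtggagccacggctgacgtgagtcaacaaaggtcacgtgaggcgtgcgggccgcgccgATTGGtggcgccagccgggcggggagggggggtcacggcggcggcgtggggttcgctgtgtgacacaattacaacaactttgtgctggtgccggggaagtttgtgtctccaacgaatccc
HDAC4: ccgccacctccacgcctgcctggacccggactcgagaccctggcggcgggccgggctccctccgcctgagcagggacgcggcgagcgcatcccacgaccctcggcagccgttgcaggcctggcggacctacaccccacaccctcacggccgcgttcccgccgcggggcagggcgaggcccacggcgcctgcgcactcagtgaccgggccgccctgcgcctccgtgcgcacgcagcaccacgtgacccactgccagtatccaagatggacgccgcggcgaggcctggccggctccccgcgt
In the KMT5A window the capitals are an E2F motif that begins 170 bases before the start, a CCAAT box that begins 42 bases before it, a CHR motif at base 18 after the start and a second E2F motif at base 31, whose last base is shared with a match to the NF-kB motif at base 37. The KDM6A window holds 2 CCAAT boxes, read on the opposite strand, that begin 198 and 70 bases before the start. No match to the 7 motifs lay in the HDAC11 and HDAC4 windows, which says only that these letters are not in these windows. RefSeq gives HDAC4 5 windows and KMT5A 2, of which 1 each is shown, and other HDAC4 windows held CHR and STAT matches.

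Levels ranged widely before treatment. In shCon cells in DMSO the highest were the class I deacetylase HDAC2 at 92.0 FPKM, the LSD demethylase KDM1A at 73.6 FPKM and the maintenance DNA methyltransferase DNMT1 at 54.9 FPKM. HDAC7 at 52.6 FPKM and HDAC3, the catalytic subunit of the NCOR complexes, at 50.3 FPKM followed. Lowest among genes with reads were TET1 at 0.104 FPKM and SIRT4 at 0.655 FPKM, neither of them tested for olaparib, and KDM5D was tested in neither table. Since only 1 value per group was used, whether neighbours in this order differ beyond their spread could not be judged.

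**Figure D1:**
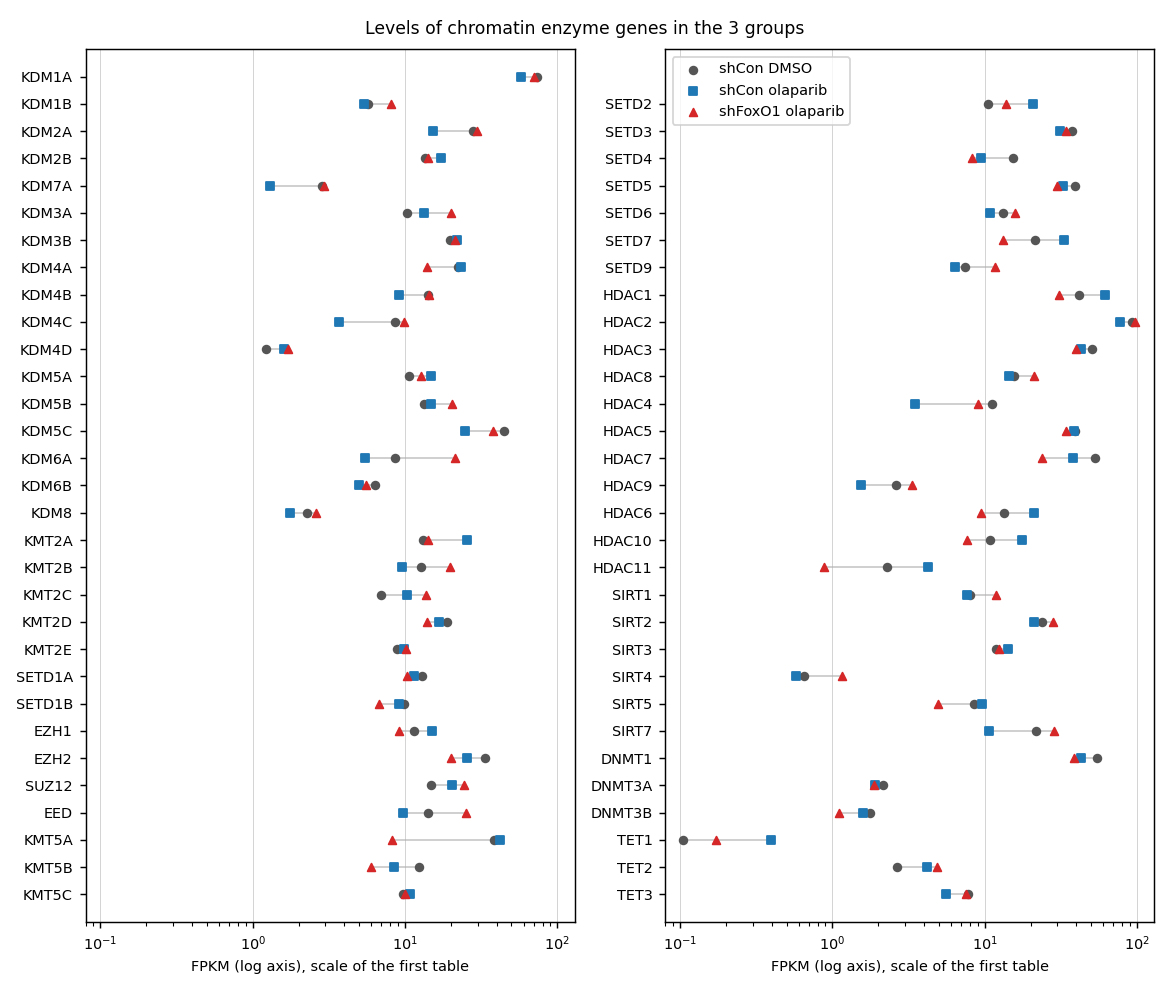
FPKM (log axis) of 61 genes in shCon DMSO (grey circles), shCon olaparib (blue squares) and shFoxO1 olaparib (red triangles), the last divided by 1.017 to bring it to the first table's scale; KDM5D is left out. KMT5A, HDAC11 and KDM6A show a shFoxO1 value apart from both shCon values, while HDAC2 is the highest in every group.

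After olaparib, 9 of the 59 tested genes were called higher (15.3%, against 15.6% of all 14841 tested genes) and 12 lower (20.3%, against 23.1%). Under olaparib, shFoxO1 left 14 of 60 higher (23.3%, against 22.6% of all 14660 tested genes) and 11 lower (18.3%, against 19.8%). All 4 shares lie near those of all genes. The median log2 ratio was -0.16 for olaparib, against -0.07 over all tested genes. After quantile normalization it was 0.02, and 0.02 over all tested genes as well. Before that normalization it was 0.07 for shFoxO1, against 0.01 over all tested genes. At least 2-fold changes were seen in 4 called genes with olaparib, all lower (none higher, against 8.28% of all tested genes, and 4 lower, against 9.44%). With shFoxO1 it was 13 of 60, 7 higher and 6 lower, against 22.8% of all tested genes in either direction. Every called gene kept its direction under quantile normalization. The log2(FPKM + 1) scale cannot turn a direction, so it gives no check of this. With untested genes entered in the adjustment, 9 of the 21 olaparib calls were lost (KMT2A, KMT2C, EED, EZH2, SUZ12, KMT5B, HDAC4, HDAC7 and HDAC11), as were 5 of the 25 shFoxO1 calls (KDM5B, KDM5C, SETD1B, SETD2 and TET3). The comparisons share the shCon olaparib group, so a gene low there tends to appear lower in the first and higher in the second; each comparison is therefore given by its own values.

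**Figure D2:**
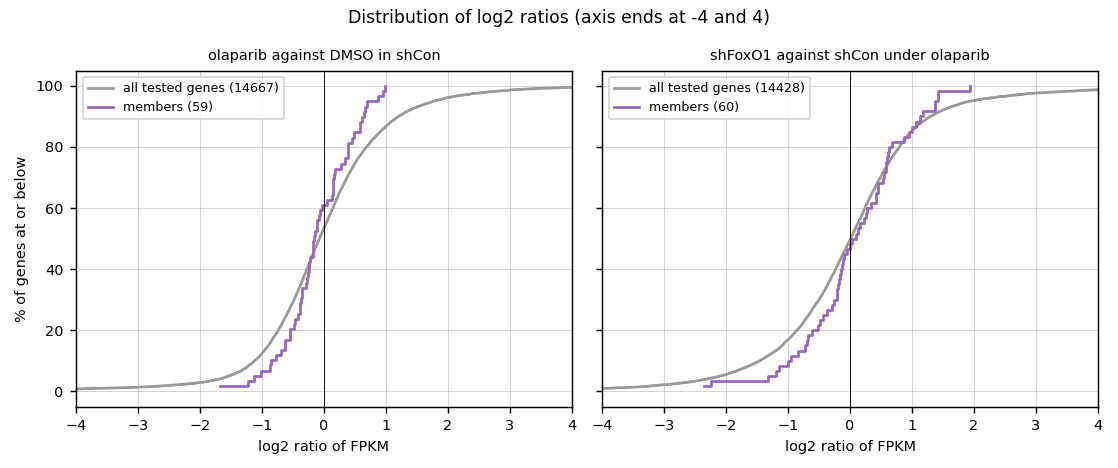
Share of genes (%) at or below each log2 ratio of FPKM, for all tested genes (grey) and for the chromatin enzyme genes (purple), in olaparib against DMSO (left) and shFoxO1 against shCon (right). The enzyme genes keep within -1.68 to 0.99 with olaparib and -2.36 to 1.94 with shFoxO1, while the axis cuts off farther values of other genes.

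Of 17 tested KDM genes, 5 were called lower with olaparib (29.4%, against 23.1% of all tested genes) and none higher (against 15.6%). The other 12 were not called, and 7 of the 17 log2 ratios were positive. All KDM genes were grouped after their values were seen. KDM4C, which removes methyl groups from lysine 9 and lysine 36 of histone H3, went from 8.64 FPKM in DMSO to 3.69 FPKM with olaparib, a 2.34-fold fall. Its paralogue KDM4B went from 14.1 to 9.08 FPKM. KDM7A, a demethylase with a PHD reader domain, was at 2.84 FPKM in DMSO and fell to 1.29 FPKM (log2 ratio -1.14). Each of these was lower in the drug-treated group than in DMSO. KDM2A, which binds CpG islands through a CXXC zinc finger, fell from 28.0 to 15.4 FPKM. KDM5C, an X-linked eraser of the methyl mark of active promoters, fell from 44.8 to 24.8 FPKM. Their q-values in the authors' deposited table ran from 0.000284 to 0.00123. Members of the same subfamilies did not pass: KDM4A was at 22.4 and 23.3 FPKM, KDM2B at 13.5 and 17.2 FPKM and KDM5B at 13.4 and 14.8 FPKM. The other KDM genes not called had log2 ratios from -0.64 (KDM6A) to 0.48 (KDM5A).

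With shFoxO1 under olaparib, 8 of the 17 tested KDM genes rose (47.1%, against 22.6% of all tested genes) and KDM4A alone fell (5.88%, against 19.8%). The grouping was made after these values were seen. KDM6A, also called UTX, removes the repressive Polycomb methyl mark (chromosome X, 44873188 to 45112779). Under the drug it stood at 5.60 FPKM in shCon cells against 21.5 FPKM in shFoxO1 cells, a 3.84-fold rise (log2 ratio 1.94, q of 0.000244 by the authors' deposited table). This was the largest rise among the 62 genes, and its paralogue KDM6B was not called at 5.06 and 5.65 FPKM. KDM6A had been at 8.55 FPKM in DMSO and 5.50 FPKM with olaparib in shCon cells, a difference that was not called (q of 0.0892 by the authors' deposited table). KDM4C rose 2.67-fold, from 3.76 to 10.0 FPKM, and KDM4B from 9.23 to 14.7 FPKM. KDM4A, of the same activity, went the other way, from 23.7 to 14.3 FPKM (log2 ratio -0.73). The KDM4 genes thus split under shFoxO1, with KDM4D not called at 1.62 and 1.74 FPKM. KDM7A rose from 1.32 to 3.00 FPKM and KDM2A from 15.6 to 30.4 FPKM. KDM3A, a hypoxia-inducible demethylase, rose from 13.7 to 20.5 FPKM and its paralogue KDM3B was at 22.3 and 21.6 FPKM, not called. In the KDM5 group KDM5C rose from 25.2 to 38.4 FPKM and KDM5B from 15.1 to 20.6 FPKM, both calls lost when untested genes entered the adjustment. KDM5A was at 15.1 and 13.0 FPKM. The LSD enzymes KDM1A, at 58.8 and 71.2 FPKM, and KDM1B, at 5.49 and 8.27 FPKM, were not called in either comparison, nor was the JmjC protein KDM8.

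**Figure D3:**
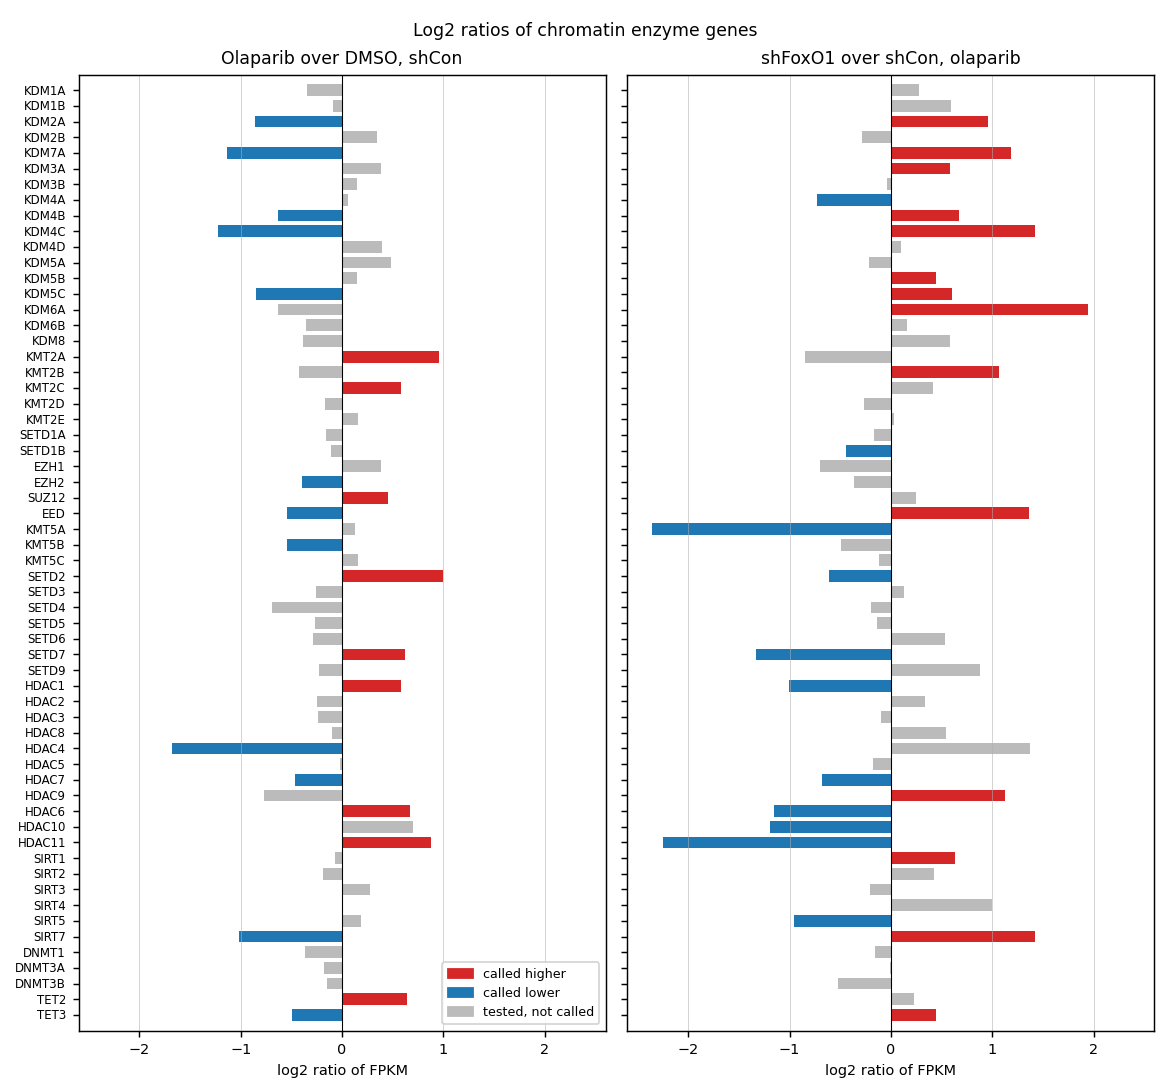
Log2 ratio of FPKM for the chromatin enzyme genes, in order of role. The left side is olaparib over DMSO in shCon cells and the right side shFoxO1 over shCon under olaparib. Red bars were called higher, blue lower and grey not called. KDM5D and TET1, tested in neither comparison, are left out, and the gap on the left is SIRT4, not tested for olaparib. On the right the longest bars are KMT5A at -2.36, HDAC11 at -2.25 and KDM6A at 1.94.

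Most genes of the KMT2 and SETD1 group encode catalytic subunits of the COMPASS complexes, which methylate lysine 4 of histone H3. KMT2E is counted in the group by its symbol only. Of the 7 genes, 2 were higher with olaparib (28.6%, against 15.6% of all tested genes) and none lower. Both calls were lost when untested genes entered the adjustment. KMT2A, whose translocations drive leukaemia, went from 13.2 to 25.5 FPKM (log2 ratio 0.95, q of 0.0219 by the authors' deposited table). KMT2C, which acts at enhancers, went from 6.93 to 10.3 FPKM. Its enhancer paralogue KMT2D was at 18.9 and 16.8 FPKM, not called. With shFoxO1, KMT2B, the closest paralogue of KMT2A, rose from 9.65 to 20.2 FPKM (log2 ratio 1.07, q of 0.00666 by the authors' deposited table). KMT2A was at 26.0 and 14.5 FPKM (q of 0.057 by the authors' deposited table), so these paralogues differed in sign but KMT2A was not called. SETD1B fell from 9.30 to 6.85 FPKM, while SETD1A, KMT2C, KMT2D and KMT2E were not called, with log2 ratios from -0.27 to 0.41. KMT2A shared its listed region with 7 other tested genes and KMT2B with 3, and how reads were divided there is not given in the sources used here.

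In the PRC2 core, 1 of 4 genes was called higher and 2 lower with olaparib. These are 25% and 50%, against 15.6% and 23.1% of all tested genes. With olaparib EZH2, the main methyltransferase of PRC2, fell from 33.7 to 25.7 FPKM, with a log2 ratio of -0.39 (-0.14 after quantile normalization). EED, the subunit that reads the mark, fell from 14.2 to 9.72 FPKM. SUZ12, the scaffold subunit, rose from 14.9 to 20.3 FPKM. The q-values of these calls were 0.0333, 0.0296 and 0.0166 in the authors' deposited table. Each of these calls was lost when untested genes entered the adjustment. With shFoxO1 only EED was called among the 4 core genes (25% higher, against 22.6% of all tested genes). EED rose 2.58-fold from 9.89 to 25.5 FPKM (q of 0.000244 by the authors' deposited table). EZH2 was at 26.1 and 20.3 FPKM, EZH1, the catalytic paralogue of resting cells, at 15.2 and 9.34 FPKM, and SUZ12 at 20.7 and 24.7 FPKM. EZH1 and EZH2 did not pass (q of 0.0569 and 0.0687 by the authors' deposited table).

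KMT5A showed the largest change of the 62 genes. It encodes the only enzyme known to place a single methyl group on lysine 20 of histone H4, a mark tied to the cell cycle and chromosome compaction (chromosome 12, 123384132 to 123409353). KMT5A was at 38.2 FPKM in DMSO and 41.9 FPKM with olaparib in shCon cells, not called. Under olaparib it stood at 42.6 FPKM in shCon cells against 8.31 FPKM in shFoxO1 cells, a 5.13-fold fall (log2 ratio -2.36, -2.47 after quantile normalization, q of 0.000244 by the authors' deposited table). Its level with shFoxO1 was thus below both shCon groups, which lay close together. A pseudogene copy, KMT5AP1, named after its values were seen, was listed at 0.723 and 0.406 FPKM with shCon and shFoxO1 and not tested. KMT5B and KMT5C, which add further methyl groups to the same lysine, differed from KMT5A: KMT5B was at 8.58 and 6.10 FPKM and KMT5C at 11.0 and 10.1 FPKM with shCon and shFoxO1, neither called. KMT5B had been called lower with olaparib, from 12.3 to 8.43 FPKM (q of 0.0464 by the authors' deposited table). Of 21 proliferation markers, 9 were called higher and 1 lower with olaparib (42.9% and 4.76%, against 15.6% and 23.1% of all tested genes). With shFoxO1 none was higher and 14 were lower (66.7% lower, against 19.8%), and their median log2 ratios were 0.23 and -0.75. Their part in the KMT5A, EZH2 and other values was not tested.

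Among the remaining SETD genes, SETD2 and SETD7 were called in both comparisons, which share the shCon olaparib group. Of the 7 genes, 28.6% were higher with olaparib (against 15.6% of all tested genes) and 28.6% lower with shFoxO1 (against 19.8%). SETD2, which writes trimethylated lysine 36 behind elongating RNA polymerase, rose from 10.5 FPKM in DMSO to 20.9 FPKM with olaparib, and was at 21.3 FPKM with shCon against 13.9 FPKM with shFoxO1. The second difference (q of 0.0139 by the authors' deposited table) was lost when untested genes entered the adjustment. SETD7, a methyltransferase of histone H3 and of other proteins, rose from 21.5 to 33.0 FPKM with olaparib and fell 2.52-fold from 33.6 to 13.3 FPKM with shFoxO1. With the tables brought to 1 scale, its shFoxO1 level of 13.1 FPKM was below that in DMSO and that of SETD2, 13.7 FPKM, above it. SETD3, an actin histidine methyltransferase, SETD4, SETD5, SETD6, which methylates the NF-kB subunit RELA, and SETD9 were called in neither. Their log2 ratios spanned -0.69 (SETD4) to -0.23 (SETD9) for olaparib and -0.19 (SETD4) to 0.88 (SETD9) for shFoxO1.

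With shFoxO1, 5 of 11 HDAC genes were called lower (45.5%, against 19.8% of all tested genes) and HDAC9 alone was higher (9.09%, against 22.6%). With olaparib 3 were higher (27.3%, against 15.6%) and 2 lower (18.2%, against 23.1%). All HDAC genes were grouped after their values were seen. In class I, HDAC1, a subunit of the SIN3, NuRD and CoREST complexes, rose from 41.3 to 61.6 FPKM with olaparib and fell from 62.7 to 31.3 FPKM with shFoxO1. The log2 ratio of its rise was 0.58, and 0.92 after quantile normalization. Its close paralogue HDAC2 was called in neither, at 92.0 and 77.4 FPKM and at 78.8 and 99.3 FPKM. HDAC3 and HDAC8 were also not called. Class IIb enzymes act on tubulin (HDAC6) and polyamines (HDAC10). HDAC6 rose from 13.3 to 21.1 FPKM with olaparib and fell from 21.5 to 9.68 FPKM with shFoxO1. HDAC10 was at 10.8 and 17.5 FPKM without and with the drug, not called, and fell 2.29-fold from 17.8 to 7.76 FPKM with shFoxO1.

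HDAC11, the only class IV enzyme and an efficient remover of fatty acyl groups, had the steepest fall of the deacetylases (chromosome 3, 13480306 to 13506416). It was at 2.29 FPKM in DMSO and 4.21 FPKM with olaparib (q of 0.0217 by the authors' deposited table), and under the drug at 4.28 FPKM in shCon cells against 0.902 FPKM in shFoxO1 cells. The 4.75-fold fall (log2 ratio -2.25, q of 0.000244 by the authors' deposited table) narrowed to -1.47 on the log2(FPKM + 1) scale. Class IIa, signal-regulated partners of MEF2 factors with weak catalytic activity of their own, was divided. HDAC4 (chromosome 2, 239048168 to 239401649) went from 11.2 to 3.49 FPKM with olaparib, a 3.21-fold fall and the largest called change among the 62 genes in that comparison (log2 ratio -1.68), though with a q of only 0.033 in the authors' deposited table. With shFoxO1 it was at 9.18 FPKM against 3.55 FPKM, a 2.58-fold difference that was not called (q of 0.116 by the authors' deposited table). HDAC9 was at 2.62 and 1.53 FPKM without and with olaparib, not called, and rose from 1.56 to 3.40 FPKM with shFoxO1. HDAC7 fell in both, from 52.6 to 38.1 FPKM with olaparib (a log2 ratio of -0.47, -0.14 after quantile normalization) and from 38.7 to 24.1 FPKM with shFoxO1. HDAC5 was at 34.6 to 39.2 FPKM in all 3 groups and was not called. HDAC7 shared its listed region with 5 other tested genes and HDAC4 with 1.

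**Figure D4:**
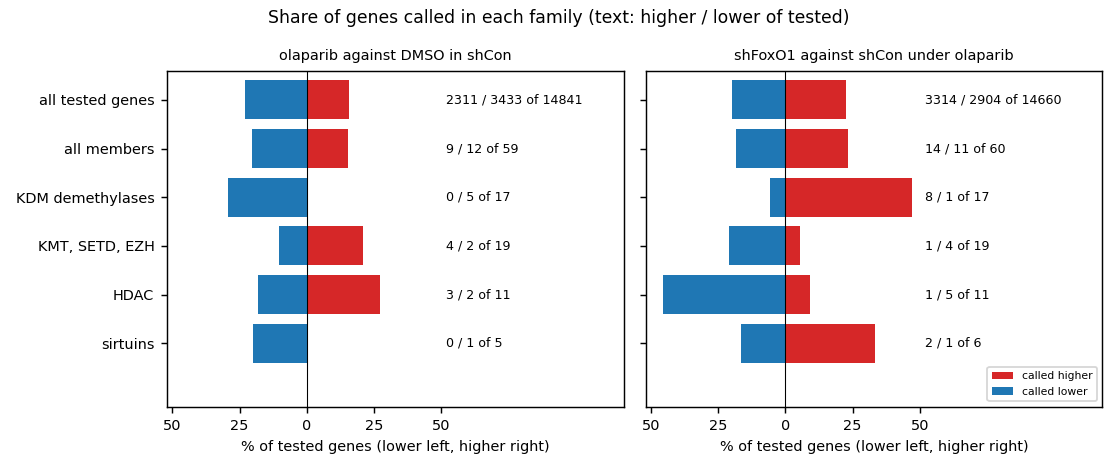
Share (%) of tested genes called higher (red, to the right) and lower (blue, to the left) in all tested genes, in the 62-gene set and in its families, with the counts of higher and lower calls beside each bar. KDM genes lie to the right under shFoxO1 (8 higher, 1 lower of 17) and HDAC genes to the left (1 higher, 5 lower of 11). The KDM, HDAC and KMT groupings were made after their values were seen.

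Of the sirtuins, 1 of 5 was lower with olaparib (20%, against 23.1%) and none higher, and 2 of 6 were higher and 1 lower with shFoxO1 (33.3% and 16.7%, against 22.6% and 19.8% of all tested genes). SIRT7, a nucleolar deacetylase, was at 21.7 FPKM in DMSO and fell to 10.7 FPKM with olaparib (a log2 ratio of -1.02, q of 0.011 by the authors' deposited table). It rose 2.68-fold, from 10.9 to 29.2 FPKM, with shFoxO1 (q of 0.000244 by the authors' deposited table). SIRT1, a nuclear deacetylase whose substrates include p53 and FOXO proteins, was at 7.98 FPKM in DMSO and 7.62 FPKM with olaparib, not called, and rose from 7.76 to 12.0 FPKM with shFoxO1. The mitochondrial desuccinylase SIRT5 was at 8.45 and 9.61 FPKM, not called, and fell from 9.78 to 5.05 FPKM with shFoxO1. SIRT2, the cytoplasmic tubulin deacetylase, and SIRT3 of mitochondria were called in neither, and SIRT4, tested only for shFoxO1, was at 0.589 and 1.17 FPKM, not called.

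No DNA methyltransferase was called. DNMT1 went from 54.9 to 42.7 FPKM with olaparib (q of 0.0583 by the authors' deposited table), with a log2 ratio of -0.36 and -0.02 after quantile normalization, and was at 43.4 and 39.0 FPKM with shCon and shFoxO1. The de novo enzymes were low, DNMT3A at 1.89 to 2.14 FPKM and DNMT3B at 1.12 to 1.76 FPKM. TET dioxygenases, which oxidise methylcytosine, moved apart with olaparib: TET2 rose from 2.66 to 4.15 FPKM and TET3 fell from 7.81 to 5.56 FPKM (both q of 0.00482 by the authors' deposited table). TET3 rose from 5.65 to 7.70 FPKM with shFoxO1, a call lost when untested genes entered the adjustment, and TET2 was at 4.23 and 4.94 FPKM. TET1 was not tested in either table, at 0.104 FPKM in DMSO and 0.393 FPKM with olaparib.

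Levels set across the tables, which were scaled separately, place shFoxO1 olaparib cells beside both shCon groups. With the second table divided by 1.017, the shFoxO1 value of 24 of 59 genes tested in both lay above both shCon values, that of 22 below both and that of 13 between them. Over all 14334 genes tested in both, 31.5% lay above and 35.9% below. By at least 1.5-fold, 5 genes lay above (8.47%, against 9.66% of all) and 6 below (10.2%, against 13.9%). Those above were KDM6A, EED, SETD9, KMT2B and KDM3A, KDM6A by the most, 2.48-fold. Those below were KMT5A at 4.68-fold, HDAC11 at 2.58-fold, SIRT5, SETD7, HDAC7 and KDM4A. No test bears on these positions, and SETD9 was called in neither table. In contrast, KDM7A at 2.84 FPKM in DMSO and 2.95 FPKM with shFoxO1 and olaparib, and KDM4B at 14.1 and 14.4 FPKM, ended near their DMSO level.

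Related enzymes outside the set, and partner proteins, were counted in the same tables. There 15.6% of all tested genes were higher and 23.1% lower with olaparib, and 22.6% higher and 19.8% lower with shFoxO1. Among 17 tested lysine methyltransferases outside the set, 2 were called higher and 4 lower with olaparib (11.8% and 23.5%, near the shares of all genes; median log2 ratio 0.03) and 3 and 3 with shFoxO1 (-0.07), with NSD2, the myeloma methyltransferase, falling from 58.0 to 21.0 FPKM. Of 8 arginine methyltransferases none was higher and 5 were lower with olaparib (-0.49), PRMT1, the main one, falling from 321 to 133 FPKM, and 3 were higher and 1 lower with shFoxO1 (0.40). Of 10 other JmjC genes none was higher and 4 were lower with olaparib (-0.62), and 2 were higher and 1 lower with shFoxO1 (0.34). JMJD6, an oxygenase of splicing factors, fell from 17.9 to 7.57 FPKM and rose from 7.70 to 29.2 FPKM in these comparisons. Of 15 acetyltransferases 5 were higher and 4 lower with olaparib (-0.03), and 4 higher and 3 lower with shFoxO1 (0.01). KAT2B, also called PCAF, rose from 4.10 to 12.2 FPKM with the drug and fell from 12.4 to 4.64 FPKM with shFoxO1, while its paralogue KAT2A rose from 39.5 to 87.6 FPKM with shFoxO1. Subunits of HDAC co-repressor complexes had 2 of 27 higher and 4 lower with olaparib (-0.05), and 2 higher and 6 lower with shFoxO1 (-0.06).

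Of 7 PRC2 accessory genes, 1 was higher and 1 lower with olaparib (median 0.22), and 4 were higher and none lower with shFoxO1 (0.70), AEBP2 going from 10.0 to 25.4 FPKM beside the rise of EED. PRC1 subunits had 3 of 19 higher and 5 lower with olaparib (0.08) and 3 higher and 6 lower with shFoxO1 (-0.17), among them the E3 partner PCGF5, from 13.4 to 51.1 FPKM, and the chromodomain protein CBX6, from 79.9 to 23.3 FPKM. COMPASS subunits had 1 of 13 higher and 4 lower with olaparib (-0.30), and none higher and 2 lower with shFoxO1 (-0.10). PSIP1, which tethers KMT2A to chromatin, rose from 21.0 to 47.7 FPKM and fell from 48.6 to 12.9 FPKM. DNA methylation cofactors and readers had 4 of 14 higher and 3 lower with olaparib (0.05), and 5 higher and 4 lower with shFoxO1 (0.12). MBD1, which binds methylated DNA, fell from 47.3 to 19.2 FPKM and rose from 19.5 to 49.2 FPKM. Of all tested genes 15.6% were higher and 23.1% lower with olaparib (median -0.07), and 22.6% higher and 19.8% lower with shFoxO1 (0.01).

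Promoter windows were searched on both strands for 7 motifs: E2F (TTTCGCG or TTTGGCG or TTTCCCG), CHR (TTTGAA or TTCGAA), the CCAAT box, NF-kB, ISRE, STAT (TTCNNNGAA) and forkhead (TGTTTAC or TGTTTGC), some of which may overlap in a window. RefSeq windows were matched for 59 of the 62 genes, 93 windows in all. An NF-kB match lay in 20.4% of these windows, in 13.1% of the windows of tested genes and in 11.3% of all RefSeq windows. E2F matches were in 11.8%, 10.6% and 7.21% of the same sets, and forkhead matches in 5.38%, 5.48% and 7.17%. CHR, CCAAT box, ISRE and STAT matches were in 9.68%, 32.3%, 1.08% and 3.23% of the enzyme gene windows. In the windows of tested genes they were in 12%, 35.1%, 3.11% and 6.26%. By gene, the NF-kB motif was in 17 of 59, of which 3 were called higher and 2 lower with shFoxO1 and 12 were not called. That is 23.1% of the 13 higher, 20% of the 10 lower and 35.3% of the 34 uncalled genes with a window, against 16.8%, 18% and 16.9% of all tested genes so called. With olaparib, 1 of the genes with that motif was called lower (9.09% of 11, against 18.2% of all genes called lower) and none higher (against 15.8%). The forkhead motif, the letters that FOXO proteins bind, was in DNMT3B, EZH1, KDM2B, KDM8 and TET2, none of them called with shFoxO1, where it was in 6.89% of all genes called higher, 8.45% of those lower and 7.13% of those uncalled. With olaparib TET2 was called higher, 1 of 9 such genes (11.1%, against 9.73% of all genes called higher). A match is a description of letters and shows no binding.

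**Figure D5:**
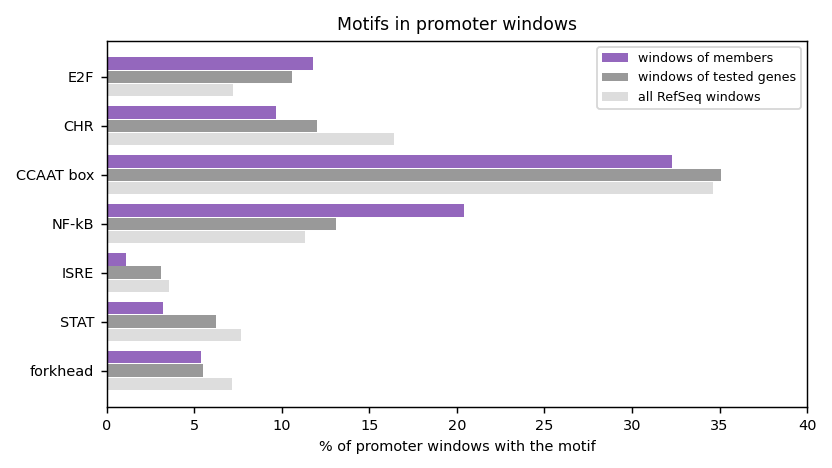
Share (%) of promoter windows that hold each motif on either strand, for the 93 windows of the chromatin enzyme genes (purple), the windows of genes tested in either table (grey) and all RefSeq windows (light grey). The NF-kB bar of the enzyme genes reaches 20.4%, against 13.1% for tested genes. Their bars for CHR, the CCAAT box, ISRE and STAT lie below those for tested genes, with ISRE in only 1 and STAT in 3 of the 93 windows. The forkhead bars are near equal, at 5.38% and 5.48%.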

How the data were processed

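Ribosomal RNA was removed from SUM159 total RNA before strand-specific paired-end sequencing, per the labels' protocols. The submitters' processing notes name CASAVA 1.4, HISAT2 2.1.0 and Cufflinks 2.2.1, with hg38 as build and no roles. Per the file headers, the authors deposited for each gene and group 1 value, read here as FPKM from the Cufflinks column layout, with a test statistic (a score, not used here), a p-value and a q-value. Each q-value in the authors' tables matched a Benjamini-Hochberg adjustment over tested genes within 5.22e-07, and the smallest p-value was 5e-05. Untested were 45741 and 45922 genes, and 13 in each table had too many reads. Columns of other samples left out numbered 0. Depth is unknown.

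Log2 ratios of FPKM were computed with no pseudocount in Python 3.11.15 (numpy 2.4.6, pandas 2.3.3). The calls are the authors'. The ratio, quantile normalization and adjustment steps were run on simulated data, which does not bear on the authors' calls. Members, role groups and gene lists were chosen with earlier results of these data known, and the larger KDM, HDAC and KMT groupings after their values were seen. Named were every called gene, and from the other lists some of the 2 called genes of at least 1 FPKM with the largest ratios. Alternatives were quantile normalization, centring, log2(FPKM + 1), q at most 0.01, a 2-fold minimum, a filter at 1 FPKM and adjustment over every listed gene. Promoter windows and gene positions are from RefSeq (GRCh38.p14). 27 of the 62 genes shared a listed region with another tested gene.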

Additional observations from a re-analysis of the deposited data

How the results depend on the processing

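When adjustment ran over every listed gene, the olaparib calls dropped from 21 to 12 (9 to 5 higher, 12 to 7 lower). At a q-value of 0.01 they were 11 (5 higher, 6 lower). With a 2-fold minimum 4 olaparib calls remained, 0 higher and 4 lower, and 13 of the 25 shFoxO1 calls, 7 of 14 higher and 6 of 11 lower. A filter at 1 FPKM changed no call. These losses follow from the stricter rules. The shFoxO1 calls were 19 at a q-value of 0.01 and 20 over every listed gene. The median log2 ratio for olaparib, -0.16, turned to 0.016 after quantile normalization. That of all tested genes turned likewise, from -0.071 to 0.022. The cause was not tested. Centring turned no called gene. No paired analysis was possible because each group has 1 deposited value, and for the same reason leaving out each replicate and limma were not run. Depth limits could not be set.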
